A study of Homo sapiens with 2 samples.

Results

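The MAP kinase, CDK, PI3K and related kinase genes were taken as every gene whose symbol in the platform's probe annotation starts with MAPK, MAP2K, MAP3K, MAP4K, RPS6K, CDK followed by a digit, PIK3, PRKA, PRKC, PRKD, CAMK, STK, AKT, NEK, CSNK or MKNK, antisense symbols left out. The rule used symbols and no measured value. It found 128 of the 13763 named genes. Of these, 25 share only the prefix and encode scaffolds, inhibitors, binding proteins, pseudogenes or non-coding transcripts. The expression of the 128 genes was compared between S2-013 cells, a human pancreatic cancer line, with a MEK inhibitor and without it. In both groups HOXB7, a homeobox transcription factor, had been knocked down and then re-expressed from a plasmid, so the groups share both manipulations and, per the labels, differ only in the inhibitor. Each group was 1 array of total RNA. Cells that received the inhibitor are called treated below, and the others untreated. The sources used here name neither the inhibitor, its dose nor the exposure time, and do not say whether the knockdown cells were 1 clone or a pool.

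MAP kinase cascades pass a signal through 3 tiers of kinases, in which a MAP3 kinase phosphorylates a MAP2 kinase and that kinase phosphorylates a MAP kinase. The RAF-MEK-ERK cascade carries growth signals from receptors through RAS and is often overactive in pancreatic cancer, while the JNK and p38 cascades respond mainly to stress and cytokines. PI3K and AKT form a parallel growth pathway, and CDKs drive the cell cycle or transcription. Kinases are largely controlled by phosphorylation, which an RNA array does not measure, so the values here describe messages and not kinase activity.

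A gene was called above the floor when the higher of its 2 log2 signals was at least 4.78, the median of all genes' mean signals, and 94 of the 128 members were above it. Each value is the log2 signal of the gene's probe set with the highest mean, and each difference is MEK inhibitor minus no inhibitor. The log2 scale was inferred from the range of the values, and the folds assume it. With 1 array a group there was no replicate check, so no test was run. As a gauge of probe error, probe sets of 1 gene were set against each other. Over 443 pairs of them from 145 genes, the median gap between their differences was 0.16 and the 95th percentile 0.80. A gene with more probe sets gave more pairs, so the pairs are not independent. Another 45 genes were left out because probe sets had identical values. This gauge says nothing of how cultures vary. Over all 53617 probe sets the median signal was 3.46 in treated cells and 3.49 in untreated cells. All 6 named epithelial markers reached the floor, among them KRT19 at 8.87 in treated cells and 8.94 in untreated cells. None of 2 fibroblast and none of 3 endothelial markers reached it, and of 2 leukocyte markers only CD68 did. In a bulk RNA sample, fewer cells that carry a transcript and less transcript per cell cannot be told apart.

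None of the 94 members above the floor, 17 of which share only the prefix, differed by 2-fold in either direction. The background, taken over all 7164 named genes that reached the floor, was 0.628% higher and 1.05% lower at that threshold. At 1.5-fold, 5 of the 94 members (5.32%) were higher and 3 (3.19%) lower, against a background of 4.62% higher and 3.6% lower over all genes. These shares lie near the background, so the counts do not set the members apart from other genes. Subtracting the median difference of all genes, or a loess trend on the mean, gave 4 higher and 4 lower members in place of 5 and 3. The members' median difference was 0.019, beside 0.026 over all genes, and it turned to -0.0070 and -0.011 under those corrections. Their SD between genes was 0.30, beside 0.35 over all genes. A difference below 0.25 was read for 61 members (64.9%), beside 61.9% of all genes.

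The genes that MEK-ERK signalling induces gave another picture on the same arrays. All 12 named and measured ERK feedback regulators and ERK-induced factors were lower in treated cells, 10 of them past 2-fold, with a median of -1.40. Of the 12, 5 (ETV1, ETV4, ETV5, SPRY2 and SPRY4) did not reach the floor in treated cells and passed it only through the untreated array, so their folds end in dim signals and the count and median are descriptions only. SPRY4, an inhibitor of receptor tyrosine kinase signalling, read 4.77 in treated cells and 6.92 in untreated cells. DUSP4, a phosphatase of MAP kinases, read 5.45 in treated cells and 7.34 in untreated cells. This list was chosen with earlier results of these data known, so its direction is a description of these arrays only.

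**Figure D1:**
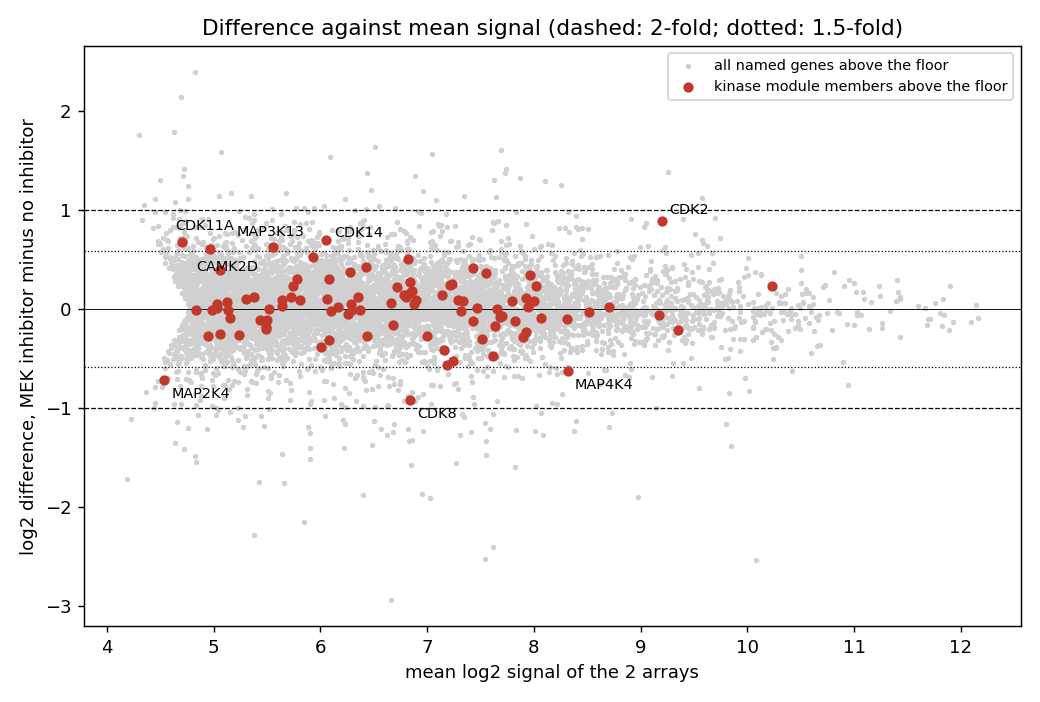
Log2 difference, MEK inhibitor minus no inhibitor, against the mean log2 signal of both arrays for all 7164 named genes above the floor (grey) and the 94 kinase members (red), 1 array per group. The 8 labelled members lie past the dotted 1.5-fold lines, and no red point lies past the dashed 2-fold lines.

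Of the ERK, ERK5 and atypical ERK genes, 4 of 8 were above the floor, and all 4 differed little. MAP2K1, which encodes MEK1, the kinase that phosphorylates ERK, read 8.71 in treated cells and 8.69 in untreated cells, a difference of 0.02. MAPK3, which encodes ERK1, read 7.21 in treated cells and 7.06 in untreated cells (0.14). MAPK7, the ERK5 gene, had a difference of 0.05, and MAPK6, the gene of the atypical kinase ERK3, of 0.09. All 4 values were higher with the inhibitor by less than the median disagreement between probe sets, and that of MAP2K1 turned to -0.0055 when the median difference of all genes was subtracted. MAP2K2, which encodes MEK2, was below the floor at 3.99 in treated cells and 4.15 in untreated cells, as was MAP2K5, the kinase gene upstream of ERK5, at 4.32 in treated cells and 4.23 in untreated cells.

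Upstream of MEK, 16 of 26 listed genes of the RAS-RAF arm and its adaptors were above the floor, 9 higher and 7 lower, with a median of 0.031. The RAS GTPase gene HRAS read 6.24 in treated cells and 6.83 in untreated cells, a difference of -0.59 and the 1 gene of this list above the floor past 1.5-fold. RRAS2, a RAS-related GTPase gene, read 5.20 in treated cells and 5.71 in untreated cells (-0.51). The RAS GTPase-activating gene RASAL2 had a difference of 0.33 and the adaptor gene GAB1 of -0.32. The RAF kinase gene ARAF, named after its value was seen, read 7.75 in treated cells and 7.73 in untreated cells. No gene of this arm above the floor was higher by 1.5-fold; below it MRAS, a RAS-related GTPase gene named after its value was seen, read 2.92 in treated cells and 2.25 in untreated cells (0.67).

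Among kinases that ERK or p38 activate, paired genes of the same family read in opposite directions. MKNK1 and MKNK2 encode kinases that phosphorylate the cap-binding factor eIF4E. MKNK1 read 6.23 in treated cells and 5.93 in untreated cells (0.30), whereas MKNK2 read 6.95 in treated cells and 7.36 in untreated cells (-0.42). MAPKAPK2 and MAPKAPK3 encode related kinases under p38. MAPKAPK2 read 6.94 in treated cells and 6.77 in untreated cells (0.18), and MAPKAPK3 read 6.98 in treated cells and 7.50 in untreated cells (-0.52). MAPKAPK5 had a difference of -0.13. None passed 1.5-fold, and all 5 differences are within the 0.80 seen between probe sets of 1 gene. Neither RPS6KA1 nor RPS6KA3, which encode RSK kinases activated by ERK, was named in the annotation used, and they were not analysed here.

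In the JNK and p38 cascades, 10 of 14 genes were above the floor, 4 higher and 6 lower, with a median of -0.0054. The widest difference was that of MAP2K4, which encodes a kinase that activates JNK and, in some settings, p38. It read 4.18 in treated cells and 4.90 in untreated cells, a difference of -0.72 or 1.65-fold lower. With the inhibitor it was below the floor, so this fold ends in a dim signal. MAP2K3, an activator of p38, read 6.85 in treated cells and 6.71 in untreated cells (0.14). MAPK9, which encodes JNK2, read 6.97 in treated cells and 6.71 in untreated cells (0.27). MAPK13, a p38 family gene, read 7.81 in treated cells and 8.05 in untreated cells (-0.23), and MAPK12, another, read 5.52 on both arrays. MAPK8IP3, a scaffold gene of the JNK cascade, had a difference of 0.12, MAPK8IP1 of -0.02 and MAPKBP1 of -0.01. The 2 probe sets of MAPKBP1 read -0.01 and -0.39, and those of MAPK1IP1L -0.09 and 0.39, so both genes disagree between probe sets. The pseudogene MAPK8IP1P2 had 3 probe sets with identical values, and near-identical copies make its value uncertain.

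**Figure D2:**
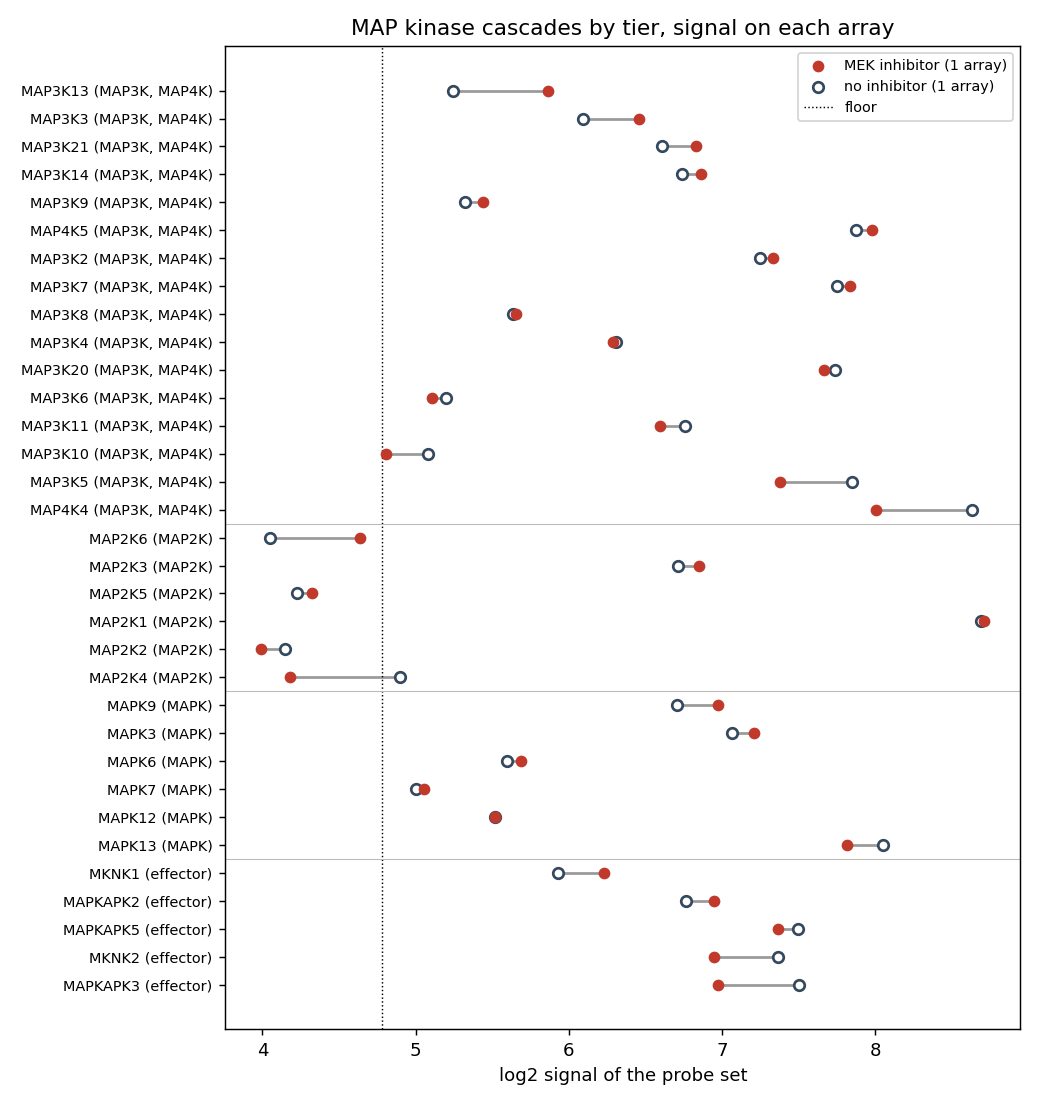
Log2 signal of MAP3 and MAP4 kinases, MAP2 kinases, MAP kinases and effector kinases with the MEK inhibitor (filled) and without it (open), 1 array each; the dotted line is the floor of 4.78, and all 6 named MAP2 kinases are drawn although 3 are below it on both arrays. Within each tier genes run from the highest difference to the lowest, and the paired points of MAP2K1 nearly coincide; signals of different probe sets are not comparable with each other.

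The MAP3 and MAP4 kinase genes that feed these cascades were balanced, with 9 of 16 above the floor higher, 7 lower, and a median of 0.052. MAP3K13, which encodes a leucine zipper-bearing kinase upstream of JNK, read 5.87 in treated cells and 5.24 in untreated cells, a difference of 0.63 or 1.54-fold higher. MAP4K4, a Ste20-type kinase gene upstream of JNK, read 8.01 in treated cells and 8.63 in untreated cells, a difference of -0.63 or 1.54-fold lower. These were the 2 members of the tier past 1.5-fold, and they stood on opposite sides. MAP3K5, which encodes the oxidative stress kinase ASK1, read 7.38 in treated cells and 7.85 in untreated cells (-0.47). MAP3K3, which encodes a kinase upstream of ERK5, read 6.45 in treated cells and 6.09 in untreated cells (0.36). MAP3K8, whose product (COT, or TPL2) can phosphorylate MEK independently of RAF, read 5.66 in treated cells and 5.63 in untreated cells (0.02). MAP3K14, the kinase gene of noncanonical NF-kappaB signalling, had a difference of 0.12. The mixed lineage kinase genes MAP3K10 and MAP3K11 had differences of -0.28 and -0.16, while those of MAP3K9 and MAP3K21 were 0.12 and 0.22.

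Promoters are shown for 3 members. MAP2K4 and CDK8 are shown because they had the lowest differences. CDK2, which had the highest difference, was also planned, but the table holds no promoter for it. MAP3K13 is shown because it was the 1 gene with a searched motif among the 7 past 1.5-fold that the table holds. It was thus chosen for its match. Each promoter runs from 250 bases before to 50 bases after the gene's start, 5′ to 3′ on the gene's strand, from RefSeq's table for GRCh38.p14. The windows were MAP3K13 at chr3:185282711-185283010 (plus strand), MAP2K4 at chr17:12020627-12020926 (plus strand) and CDK8 at chr13:26253879-26254178 (plus strand). Capitals mark a match to a searched motif, here the cyclic AMP response element in MAP3K13.
MAP3K13: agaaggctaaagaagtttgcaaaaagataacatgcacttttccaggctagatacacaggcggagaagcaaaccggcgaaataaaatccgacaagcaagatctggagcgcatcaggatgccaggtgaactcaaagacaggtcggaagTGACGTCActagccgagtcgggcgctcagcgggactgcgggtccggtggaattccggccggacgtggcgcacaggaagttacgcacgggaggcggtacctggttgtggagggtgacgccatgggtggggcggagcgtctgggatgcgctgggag
MAP2K4: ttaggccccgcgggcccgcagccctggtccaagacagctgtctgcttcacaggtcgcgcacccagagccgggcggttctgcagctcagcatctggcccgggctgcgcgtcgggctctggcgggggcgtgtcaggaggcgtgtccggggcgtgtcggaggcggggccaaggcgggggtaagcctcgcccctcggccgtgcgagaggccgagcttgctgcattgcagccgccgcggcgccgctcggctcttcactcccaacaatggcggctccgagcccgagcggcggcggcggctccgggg
CDK8: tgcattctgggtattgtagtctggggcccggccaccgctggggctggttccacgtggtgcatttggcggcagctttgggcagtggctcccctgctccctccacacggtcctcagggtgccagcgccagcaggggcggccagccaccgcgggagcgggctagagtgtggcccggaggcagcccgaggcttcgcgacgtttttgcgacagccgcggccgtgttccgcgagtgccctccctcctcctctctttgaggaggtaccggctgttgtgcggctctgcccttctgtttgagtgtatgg

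The motifs searched on both strands were an ETS site (CCGGAAGT), an AP-1 site (TGANTCA), a cyclic AMP response element (TGACGTCA) and an antioxidant response element (TGACNNNGC). ETS and AP-1 factors include targets of ERK. In MAP3K13 the element spans bases -104 to -97 from the start and overlaps no other searched motif. The MAP2K4 and CDK8 windows held none of the 4 motifs. Of all 35116 promoters in the table, 4.14% held the ETS site, 7.71% the AP-1 site, 1.85% the cyclic AMP element and 13.3% the antioxidant element. Among 126 promoters of 84 members above the floor the shares were 6.35%, 3.17%, 2.38% and 14.3% in the same order. The ETS site was in promoters of 7 members, among them CDK9 and MAPK9, and none of the 7 passed 1.5-fold. A match is only a run of letters in this window.

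CDK genes, a group that here includes genes of CDK-binding proteins, had the widest spread of the module. Their SD between genes was 0.40 over the 23 of 24 above the floor, beside 0.30 over all members and 0.35 over all genes. They held 4 of the 8 members past 1.5-fold, 3 of 23 higher and 1 of 23 lower, against the background of 4.62% higher and 3.6% lower. With so few genes and no test, nothing particular to the CDK genes is read from these counts, and CDK11A passed the floor only through the treated array. Their median was 0.016, and it turned to -0.010 and -0.0038 when the median difference or the loess trend was subtracted. CDK2, which with cyclins E and A drives entry into S phase and DNA replication, had the highest difference. It read 9.64 in treated cells and 8.76 in untreated cells, a difference of 0.88 or 1.84-fold higher. Among all genes above the floor, 2.6% had a difference at least as large in either direction. CDK8, a kinase of the Mediator complex that regulates transcription, had the lowest difference of all members. It read 6.38 in treated cells and 7.30 in untreated cells, a difference of -0.92 or 1.89-fold lower, a size reached by 2.3% of all genes. Both values of CDK2 and of CDK8 were above the floor. CDK2, CDK8 and MAP2K4 were the 3 members outside the central 95% of all genes, which ran from -0.69 to 0.72. CDK2 and CDK8 alone among the members exceeded 0.80, the 95th percentile of disagreement between probe sets. Every one of the 8 members past 1.5-fold had a single probe set, so none could be checked against a second one.

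CDK19, which encodes the paralog of CDK8 in Mediator, stood on the other side. It read 6.64 in treated cells and 6.22 in untreated cells, a difference of 0.42. CCNC, the cyclin gene whose product activates both, read 4.99 in treated cells and 5.03 in untreated cells (-0.04). CDK19 and CCNC were named after their values were seen. CDK14, which encodes a membrane-associated kinase acting with cyclin Y, read 6.39 in treated cells and 5.70 in untreated cells, a difference of 0.69 or 1.61-fold higher. CDK11A, a gene linked to transcription and splicing, read 5.04 in treated cells and 4.37 in untreated cells (0.67). The value in untreated cells is below the floor, and readings of CDK11A are uncertain because its neighbour CDK11B is nearly identical.

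The other CDKs of the cell cycle differed little. CDK4, which phosphorylates the retinoblastoma protein with D cyclins, read 9.14 in treated cells and 9.20 in untreated cells (-0.07). CDK6, its close relative, read 7.37 in treated cells and 7.30 in untreated cells (0.07). CDK1, the mitotic kinase, read 6.86 in treated cells and 7.14 in untreated cells (-0.28). CDK4 and CDK6 thus read nearly the same on both arrays, CDK2 higher and CDK1 lower in treated cells. The transcriptional kinase genes CDK7, CDK9, CDK12 and CDK13 had differences of 0.01, 0.02, -0.09 and -0.04. CDK5, an atypical CDK known from neurons, read 7.07 in treated cells and 6.57 in untreated cells (0.50). CDK2AP1, a CDK2-binding protein gene, read 6.90 in treated cells and 7.47 in untreated cells (-0.57). It was the member just outside the 1.5-fold limit of 0.58, and CAMK2D at 0.60 was the one just inside. Under both scaling corrections they changed places, with CAMK2D falling short of the limit and CDK2AP1 passing it.

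**Figure D3:**
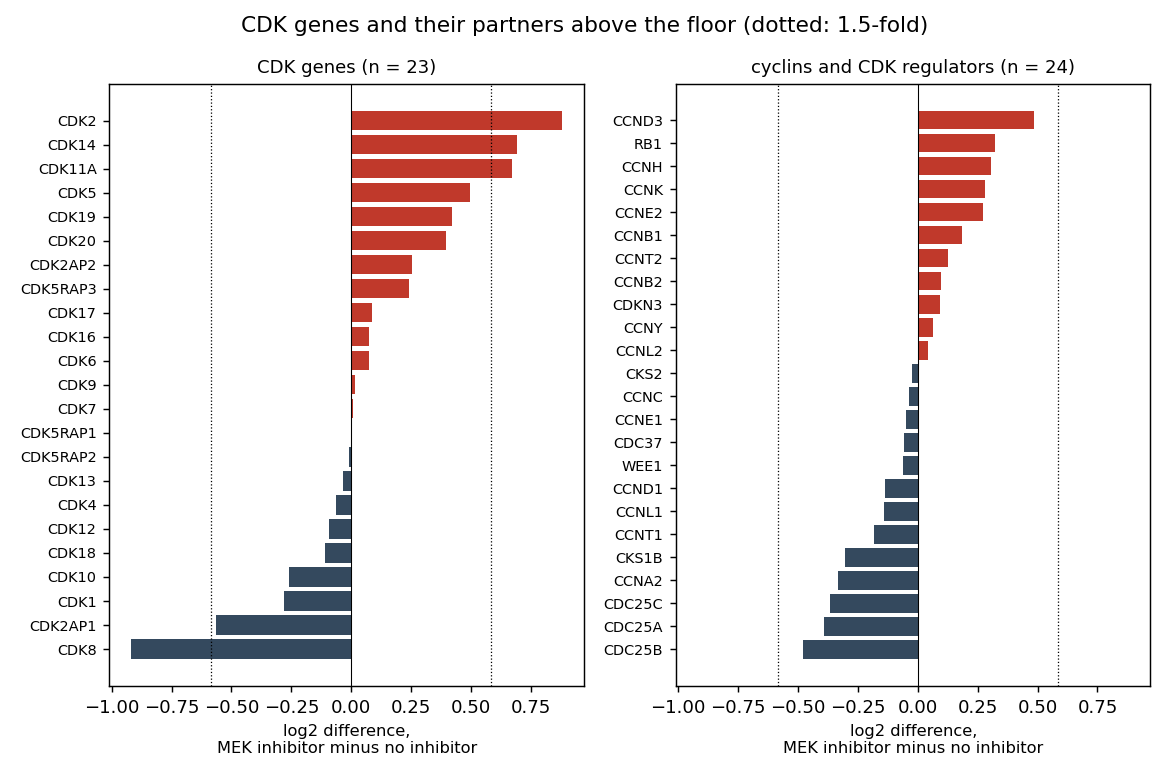
Log2 difference, MEK inhibitor minus no inhibitor, for 23 CDK and CDK-binding protein genes (left) and 24 cyclins and CDK regulators (right) above the floor, 1 array per group. Red bars are higher with the inhibitor, dark bars lower, and dotted lines mark 1.5-fold. CDK2 (0.88), CDK14, CDK11A and CDK8 (-0.92) pass the lines, and no gene on the right does.

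The partners of the CDKs that were above the floor stayed within 1.5-fold. Of 24 cyclins and CDK regulators above the floor, 11 were higher and 13 lower, with a median of -0.031. The CDK inhibitor gene CDKN2A was below the floor, at 3.59 in treated cells and 3.70 in untreated cells. Of the 34 listed genes 26 were named in the annotation used, and CDKN2A was the only CDKN1 or CDKN2 type gene among them. The other inhibitor genes of these types were thus not read here, rather than read as dim. The counts do not describe these inhibitors. The cyclin D3 gene CCND3 read 5.98 in treated cells and 5.49 in untreated cells (0.49). The 3 CDC25 phosphatase genes, whose products remove inhibitory phosphates from CDKs, were all lower. CDC25B read 7.32 in treated cells and 7.80 in untreated cells (-0.48), and CDC25A and CDC25C had differences of -0.39 and -0.37.

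**Figure D4:**
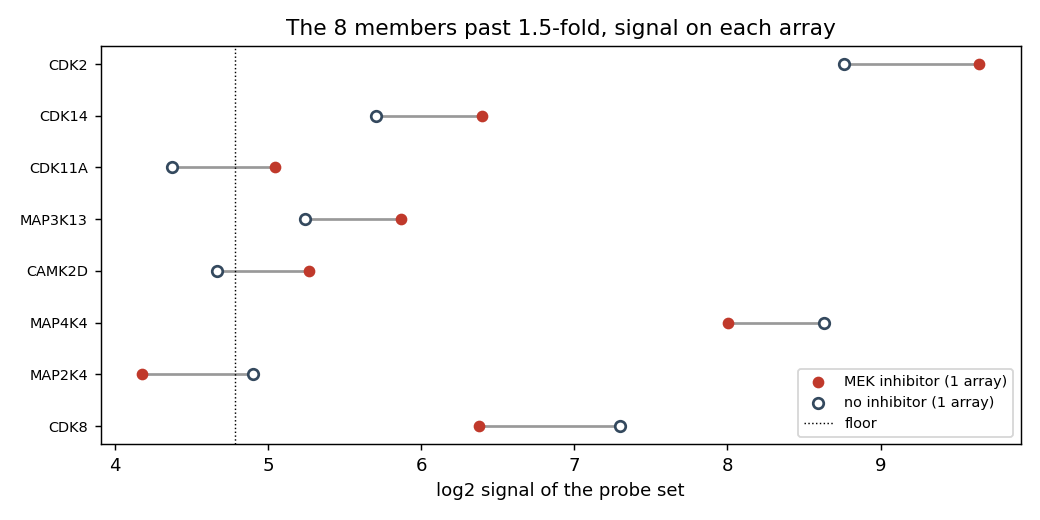
Log2 signal of the 8 members past 1.5-fold with the MEK inhibitor (filled) and without it (open), 1 array each, ordered from the highest difference to the lowest. CDK2, CDK14, CDK11A, MAP3K13 and CAMK2D are higher with the inhibitor and MAP4K4, MAP2K4 and CDK8 lower; CDK11A, CAMK2D and MAP2K4 cross the dotted floor of 4.78.

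The PI3K-AKT branch was thinly covered. No catalytic or regulatory PI3K subunit and no S6 kinase of the RPS6KB type was named in the annotation used, and the only PIK3 symbol, the inhibitor gene PIK3IP1, was below the floor at 3.36 in treated cells and 3.37 in untreated cells. The values for this branch are therefore those of AKT and mTOR complex genes and not of PI3K itself. AKT1, the central kinase gene of the pathway, read 6.18 in treated cells and 6.16 in untreated cells (0.02), and its second probe set read 4.79 on both arrays. AKT2 read 5.92 in treated cells and 6.24 in untreated cells (-0.32). AKT1S1, which encodes the AKT substrate and mTORC1 inhibitor PRAS40, read 6.19 in treated cells and 5.66 in untreated cells (0.52). AKTIP, an AKT-binding protein gene, read 7.64 in treated cells and 7.23 in untreated cells (0.41). MAPKAP1, which encodes the SIN1 subunit of mTORC2, read 8.14 in treated cells and 7.91 in untreated cells (0.23). The higher readings were thus those of regulators and binding proteins and not of the AKT kinases. The median of the 5 genes was 0.23, and without the filter it was 0.018 over 7.

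Of the other PI3K-AKT-mTOR genes, 16 of 24 listed were above the floor, with 9 higher, 6 lower, 1 equal and a median of 0.065. IRS1, which couples the insulin and IGF receptors to PI3K, read 5.06 in treated cells and 5.95 in untreated cells, a difference of -0.90. PHLPP2, which encodes a phosphatase that inactivates AKT, read 6.88 in treated cells and 6.06 in untreated cells (0.82). They were the 2 genes of this list above the floor past 1.5-fold, and none passed 2-fold. The kinase gene SGK1, related to AKT, had a difference of -0.51 and the transcription factor gene FOXO4 of -0.45. MTOR, the kinase gene of the mTOR complexes, had a difference of -0.08 and PDPK1, whose product phosphorylates AKT, of 0.14; both were named after their values were seen.

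**Figure D5:**
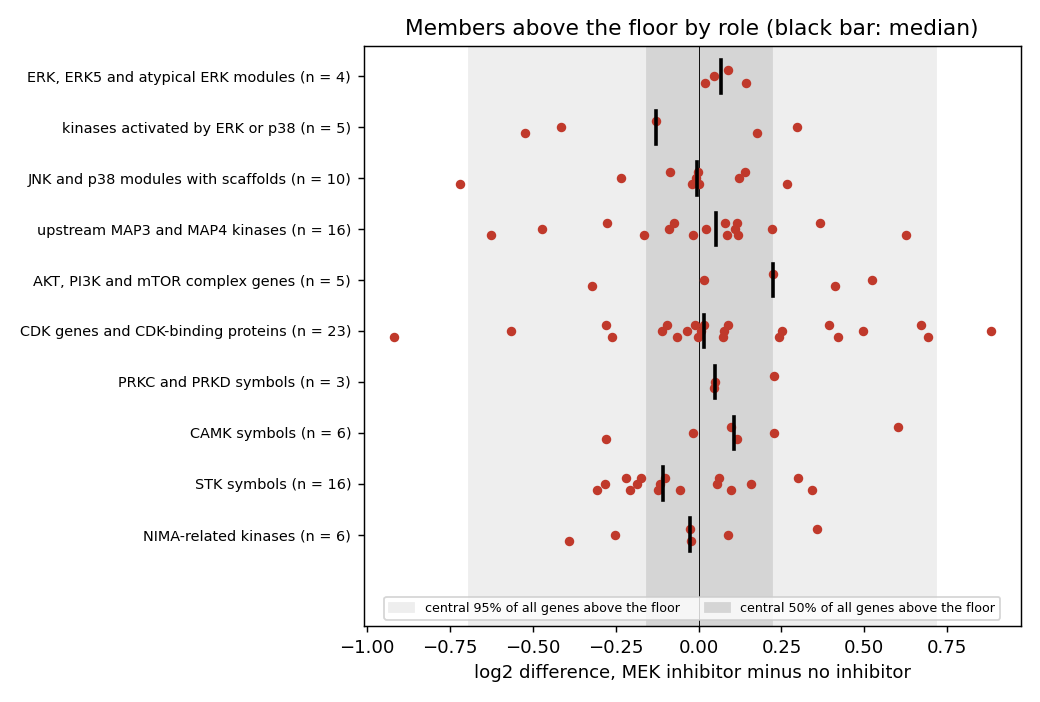
Log2 difference, MEK inhibitor minus no inhibitor, for each member above the floor (red points) by role, with each role's median (black bar) over the central 95% (light) and 50% (dark) of all 7164 genes, 1 array per group. Every median but that of the AKT group (0.23) lies within the dark band, and CDK genes reach farthest on both sides.

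The STK genes, among them kinases of the Ste20 family and the Hippo pathway, had 10 of 16 above the floor lower and a median of -0.11. Over all genes above the floor, 3303 of 7164 were lower and the median was 0.026. With so few genes and no test, nothing particular to the STK genes is read from this count. Their differences ran from -0.31 to 0.34, so none passed 1.5-fold. STK24, a Ste20 kinase of the STRIPAK complex, read 7.36 in treated cells and 7.66 in untreated cells (-0.31). STK4, the Hippo pathway kinase gene MST1, read 7.75 in treated cells and 8.04 in untreated cells (-0.28). STK38, an NDR kinase gene downstream of the Hippo kinases, read 8.13 in treated cells and 7.79 in untreated cells (0.34). STK11, which encodes the tumour suppressor LKB1, read 6.91 in treated cells and 6.76 in untreated cells (0.16). STK4 and STK38, kinases of 1 pathway, thus read in opposite directions. Both differences exceed the median probe set disagreement of 0.16 and lie within its 95th percentile of 0.80. STK39, STK10 and STK17A had differences of -0.22, -0.17 and -0.12. STK32C had 2 probe sets with identical values, so they do not check each other.

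Of the Hippo and LKB1 partner genes, 12 of 18 listed were above the floor, 8 higher and 4 lower, with a median of 0.067. WWC1, which encodes the scaffold KIBRA, read 7.15 in treated cells and 6.35 in untreated cells (0.80), the 1 gene of this list above the floor past 1.5-fold. Below the floor, CAB39L, a scaffold gene related to that of the LKB1 complex and named after its value was seen, read 4.31 in treated cells and 3.43 in untreated cells (0.88). The Hippo effector gene YAP1 read 7.50 in treated cells and 7.95 in untreated cells (-0.45), but its second probe set had a difference of 0.10. STRADB, a pseudokinase gene of the LKB1 complex, had a difference of 0.37 and the kinase gene TAOK3 of -0.33.

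The calcium-dependent, NIMA-related and protein kinase D genes completed the module. CAMK2D, which encodes the delta subunit of the calcium/calmodulin-dependent kinase CaMKII, read 5.27 in treated cells and 4.67 in untreated cells, a difference of 0.60 or 1.52-fold higher that starts below the floor. The gene of the gamma subunit, CAMK2G, had a difference of 0.12, and its second probe set of 0.03. CAMK2N1, which encodes an inhibitor of CaMKII, read 6.30 in treated cells and 6.58 in untreated cells (-0.28). A kinase subunit gene and an inhibitor gene of CaMKII thus read in opposite directions, while the second inhibitor gene, CAMK2N2, had a difference of 0.10.

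Of 6 NIMA-related kinase genes above the floor, 2 were higher and 4 lower. NEK6 and NEK7 encode closely related mitotic kinases. NEK6 read 7.73 in treated cells and 7.38 in untreated cells (0.36), and NEK7 read 5.81 in treated cells and 6.20 in untreated cells (-0.39). NEK2, a centrosomal mitotic kinase gene, had a difference of -0.02. The protein kinase D genes PRKD2 and PRKD3 both had a difference of 0.05. PRKCSH, which shares only the symbol prefix and encodes a glucosidase subunit of the endoplasmic reticulum, read 10.3 in treated cells and 10.1 in untreated cells (0.23). No member of the protein kinase C, cyclic AMP-dependent, AMP-activated or casein kinase families was named in the annotation used. These families were not analysed here.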

How the data were processed

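Total RNA of both samples was hybridised to whole-transcript Affymetrix arrays. Per the submitters' processing notes, Affymetrix Expression Console 1.3 was used; its settings are not stated in the sources used here. The authors deposited 1 value per probe set, taken as log2 from its range. Arrays had near-equal quantiles, so values were used as deposited. Of 53617 probe sets, 16098 had a gene symbol, each Entrez identifier matched the RefSeq gene table and no symbol changed; 1287 small RNA probe sets were left out.

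The probe set with the highest mean stood for its gene. Thresholds were 2-fold and 1.5-fold, and medians needed 3 members. Named were members past 1.5-fold, the highest and lowest of each role list, 37 core genes (14 unnamed in the annotation) and up to 4 genes per partner list; others are described by value. The members and lists were chosen with earlier results of these data known. With 1 array per group no test was run, and that number limits the precision. Counting and scaling were tested on simulated data. No protein sequences were used. Computations used Python 3.11.15, numpy 2.4.6, pandas 2.3.3, statsmodels 0.14.6 (loess fraction 0.3) and matplotlib 3.10.9.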

Additional observations from a re-analysis of the deposited data

Results flagged for a closer look

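MAP2K6, which encodes an activator of p38, was left out of the counts because both signals were below the floor of 4.78, but it differed past 1.5-fold. It read 4.64 in treated cells and 4.05 in untreated cells, a difference of 0.59 in data the comparisons did not use. It was the 1 of 34 members below the floor past 1.5-fold, and whether its dim signal is above background is unknown.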

How the results depend on the processing

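No paired analysis was possible because there is 1 array a group, which also means that none could be omitted. No member passed 2-fold under any of the 5 alternatives of scaling, filter and probe set choice, or 3-fold under the main settings. With the 75th percentile filter 3 members passed 1.5-fold, 1 higher (CDK2) and 2 lower (CDK8 and MAP4K4), in place of 8, because 53 members were left. The other alternatives gave 8 or 9. The AKT group's median was 0.018 without the filter, which added PIK3IP1 and RPS6KL1. The other 241 of 244 recomputed values moved by less than the median probe set disagreement of 0.16, or by at most 1.5 times for counts. Of these, 163 were differences of single genes and 78 were counts or medians. A filter cannot alter the difference of a gene, and averaging cannot alter that of a gene with 1 probe set. Subtracting the median shifts every gene alike. The stability of the 163 was thus largely fixed in advance and is no check of them. A list with fewer than 3 members left gave no median. Dim signals, with unknown background, limit CDK11A, CAMK2D and MAP2K4.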

Other observations

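The 34 members below the floor on both arrays had differences from -0.46 (MAP3K7CL) to 0.59 (MAP2K6). STK33 read 3.91 in treated cells and 3.35 in untreated cells (0.56), and NEK11 read 4.20 in treated cells and 3.76 in untreated cells (0.44). The neuronal JNK3 gene MAPK10 was at 2.88 in treated cells and 3.02 in untreated cells, and the p38 beta gene MAPK11 at 3.98 on both arrays. These are dim signals of 1 array each, chosen here after their values were seen.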
